A study of Arabidopsis thaliana with 12 samples.

Results

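Wild-type seedlings held at 29 °C were compared with seedlings over-expressing *APOLO* at 23 °C. All 6 libraries labelled as either group were taken, 3 per group, out of 12 libraries in the series, together with every gene in the count files. The warm group is WT 29 °C, the accession Col-0 with no transgene, and the study's methods state that the warmth lasted 6 h. The over-expressing group is OE *APOLO-1* 23 °C, a single line in which the 35S promoter, which is active in most cell types, drives *APOLO* in the Col-0 background. The remaining libraries are *vim1-3* 23 °C, an insertion mutant of *VIM1* in Col-0, and WT 23 °C, with 3 libraries each. All libraries come from whole 4-day-old seedlings grown on the same medium in long days. No group holds OE *APOLO-1* at 29 °C, so warmth and the transgene cannot be told apart in this comparison, and the levels in *vim1-3* 23 °C and WT 23 °C are given beside it. In whole seedlings, fewer cells of a type and less RNA per cell also cannot be told apart.

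The 6 libraries compared held 14954264 to 20977470 counts, and those of the other groups held 8824476 to 22925019. The study's methods call the replicates independent and biological, without saying what was kept apart, so p-values measure the spread between these libraries. The median SD of log2 CPM (counts scaled to library size with TMM factors) was 0.120 in WT 29 °C, 0.130 in OE *APOLO-1*, 0.089 in *vim1-3* and 0.205 in WT 23 °C. The WT 23 °C libraries therefore served only as levels: replicate A held 1197 *APOLO* counts, and replicate B was low for root genes, with 19 counts of the root phosphate transporter *PHT1;1* against 912 and 252 in replicates A and C. A gene was called where its adjusted p was under 0.01 in edgeR, which held for 17.1% of all genes tested, 8.41% higher and 8.74% lower in WT 29 °C. Of 5 root markers tested, 4 were not called and *PHT1;1* was higher in WT 29 °C (log2 fold change 0.41, call lost without OE *APOLO-1* replicate B or OE *APOLO-1* replicate C). Of 2 flower markers tested PI was lower (−1.26, call lost without OE *APOLO-1* replicate B or WT 29 °C replicate C), *AP1* and *AG* had 0 or 1 count in every library, and *VGD1* had 0 counts in all 12.

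Mild warmth below the threshold of heat damage makes Arabidopsis hypocotyls and petioles grow longer, a response called thermomorphogenesis. The transcription factor *PIF4* accumulates and binds the promoter of *YUC8*, whose flavin monooxygenase makes auxin, and auxin then raises the transcript levels of growth genes such as SAUR and Aux/IAA genes. Heat shock factors act beside this pathway and raise chaperone levels within minutes to hours. *APOLO* is a long noncoding RNA that is transcribed next to the auxin-transport kinase gene *PID* and that contacts target genes through DNA-RNA duplexes, and *VIM1* is a methylcytosine-binding protein that maintains DNA methylation. The study asked whether *APOLO* and *VIM1* take part in thermomorphogenesis and act on *YUC2*, and these libraries give the transcriptome in warm wild type and in the over-expressor at the cooler temperature.

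The transgene was read first. *APOLO* (AT2G34655, chromosome 2, 14596565 to 14597543, plus strand in TAIR10.1) had 2, 8 and 5 counts in WT 29 °C, against 4984, 8949 and 11720 counts in OE *APOLO-1* (libraries A to C, in that order throughout). It had 18, 10 and 6 counts in *vim1-3*. On the CPM scale these are 0.117, 0.443 and 0.227 in WT 29 °C and 352, 463 and 606 in OE *APOLO-1*, with no overlap (log2 fold change −10.79, standard error 0.36, adjusted p = 3.93e-07, edgeR with Benjamini-Hochberg adjustment, as for every adjusted p here). The over-expressing libraries match their labels. Its genomic neighbour *PID* was not called (2.63 ± 0.317 CPM in WT 29 °C and 1.83 ± 0.252 CPM in OE *APOLO-1*, SD, n = 3 each, adjusted p = 0.0928, edgeR).

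The warmth genes of the study were higher in WT 29 °C. *PIF4* had 119, 125 and 123 CPM in WT 29 °C, against 74.3, 65.3 and 64.4 CPM in OE *APOLO-1*, and *YUC8* had 26.4, 24.8 and 23.4 CPM in WT 29 °C against 6.77, 6.52 and 5.48 CPM in OE *APOLO-1*. The 3 warm libraries lay above the 3 over-expressing libraries for both genes, and the rise of *YUC8* was 3.98-fold (log2 fold change 1.99, standard error 0.12, adjusted p = 2.79e-08, edgeR) while that of *PIF4* was 1.79-fold (log2 fold change 0.84, standard error 0.09, adjusted p = 5.62e-06, edgeR). *YUC8* had 5.62, 5.56 and 5.03 CPM in *vim1-3* and 6.999, 12.7 and 10.3 CPM in WT 23 °C, so that the *vim1-3* libraries lay beside those of OE *APOLO-1* and WT 23 °C replicates B and C lay above them. *YUC2*, another auxin-producing monooxygenase, had 4.37, 3.38 and 4.17 CPM in WT 29 °C and 0.987, 2.54 and 1.45 CPM in OE *APOLO-1* (log2 fold change 1.22, standard error 0.27, adjusted p = 0.00415, edgeR). That call was lost without OE *APOLO-1* replicate A or C or WT 29 °C replicate A or C, with an adjusted p of up to 0.0287.

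*VIM1* itself was not called between these groups: it had 8.86, 10.1 and 10.9 CPM in WT 29 °C and 11.1, 11.6 and 10.2 CPM in OE *APOLO-1* (log2 fold change −0.14, adjusted p = 0.448, edgeR). In the *vim1-3* mutant it had 0.213, 0.238 and 0.0422 CPM. The paralog *VIM3* (log2 fold change −0.24), the Polycomb protein gene *LHP1* (0.33), the root hair regulator *RHD6* (−0.20) and the reference gene *PP2AA3* (0.09) were not called either. *VIM2* was too low to test, with 8, 10 and 9 counts in WT 29 °C and 11, 14 and 9 counts in OE *APOLO-1*.

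Across the transcriptome, 19981 of 37336 genes were high enough to test and 3426 of these (17.1%) were called. WT 29 °C was higher for 1680 genes and lower for 1746. The libraries of the 2 groups did not overlap for any called gene, and over all tested genes they did not overlap for 42.7%. Most differences were small, with a median log2 fold change of 0.69 among the higher genes, −0.67 among the lower genes and −0.01 over all genes tested. At least 2-fold differences were seen for 491 higher and 438 lower genes, and at least 8-fold differences for 70 higher and 31 lower genes. Calls fell to 2141 without OE *APOLO-1* replicate B and to 2261 without WT 29 °C replicate A. They fell to 1689 when all 12 libraries shared 1 estimate of the spread, which kept 48.8% of the 3426.

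**Figure D1:**
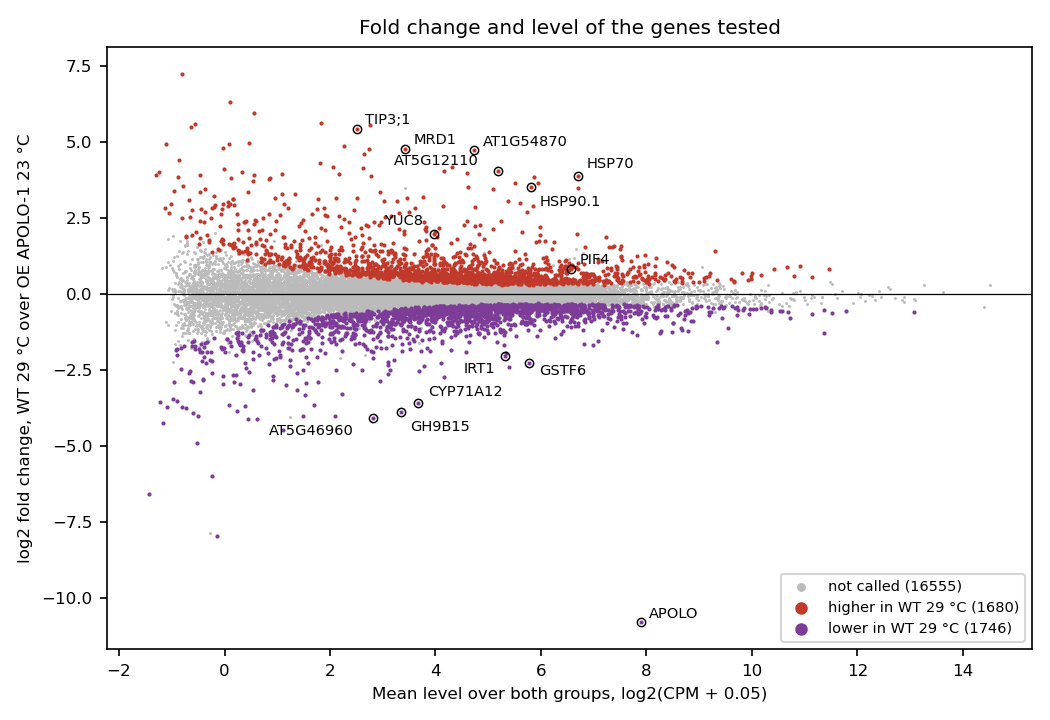
Fitted log2 fold change (WT 29 °C over OE *APOLO-1* 23 °C, vertical axis) of the 19981 tested genes by mean level (log2 CPM, horizontal axis), with called genes in colour and leading genes named. The 1680 higher and 1746 lower genes are spread over the whole range of levels, and *APOLO* stands alone at the bottom at −10.79.

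Chaperone genes were higher in WT 29 °C nearly throughout. Of 27 genes tested for large cytosolic and organellar chaperones and their partners, 23 were higher in WT 29 °C and 0 were lower, with a median log2 fold change of 0.91 against −0.01 over all genes. *HSP70* (AT3G12580), a stress-induced cytosolic chaperone that holds unfolded proteins, had 189, 225 and 172 CPM in WT 29 °C, against 13.2, 13.0 and 13.4 CPM in OE *APOLO-1*. The warm libraries were more than an order of magnitude above the over-expressing libraries (log2 fold change 3.88, standard error 0.12, adjusted p = 4.64e-11, edgeR). The 3 OE *APOLO-1* libraries differed little among themselves, and *vim1-3* stood nearby at 23.64, 22.2 and 22.6 CPM. WT 23 °C had 24.5, 115 and 127 CPM, so that replicates B and C of that group lay between the warm and the over-expressing libraries and replicate A lay beside *vim1-3*.

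*HSP90.1*, the heat-inducible cytosolic HSP90, had 98.3, 120.2 and 92.7 CPM in WT 29 °C and 9.17, 8.90 and 8.84 CPM in OE *APOLO-1* (log2 fold change 3.53, standard error 0.11, adjusted p = 8.03e-11, edgeR). Again WT 23 °C replicate A was low at 17.5 CPM while replicates B and C stood at 84.3 and 100.2 CPM. *ROF2*, a prolyl isomerase that binds HSP90, had 42.0, 52.9 and 39.7 CPM in WT 29 °C and 4.37, 3.73 and 3.72 CPM in OE *APOLO-1* (log2 fold change 3.51, standard error 0.14, adjusted p = 6.82e-10, edgeR). The number of higher chaperones in this list was 20 to 22 when a library was left out or all 12 were fitted, while 1 of 27 was lower at an unadjusted p under 0.05 and 0 with DESeq2.

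Small heat shock proteins, which keep unfolding proteins soluble, were at a low level in WT 29 °C and OE *APOLO-1*. The summed level of the list was 15.8 to 19.6 CPM in WT 29 °C, 2.40 to 9.61 CPM in OE *APOLO-1*, 2.77 to 3.18 CPM in *vim1-3* and 8.10 to 58.1 CPM in WT 23 °C, whose highest library was thus above the warm ones. Of 6 tested, 3 were higher in WT 29 °C. *HSP23.6*, which acts in mitochondria, had 30, 41 and 29 counts in WT 29 °C and 2, 0 and 3 counts in OE *APOLO-1* (log2 fold change 4.12, standard error 0.54, adjusted p = 6e-05, edgeR). *HSP17.4* had 8.63, 10.7 and 9.26 CPM in WT 29 °C and 0.494, 0.673 and 2.79 CPM in OE *APOLO-1*, with all warm libraries above the over-expressing ones but an adjusted p of only 0.00886 in edgeR (call lost without OE *APOLO-1* replicate B, WT 29 °C replicate A, WT 29 °C replicate B or WT 29 °C replicate C, and also with no filter, with the replicate block and with all 12 libraries), and *HSP22.0* had 16, 15 and 14 counts in WT 29 °C and 1, 0 and 4 counts in OE *APOLO-1*. Only 1 of the 6 was called without OE *APOLO-1* replicate B, without WT 29 °C replicate A or over all 12 libraries. A broader group of 31 genes whose product name is HSP20-like was added after values were seen. It held 10 higher and 3 lower members (1 lower with all 12 libraries or without OE *APOLO-1* replicate B or C or WT 29 °C replicate A or C). Among the lower was AT4G21870 at 34.0 ± 2.09 CPM in WT 29 °C and 88.1 ± 19.5 CPM in OE *APOLO-1* (SD, n = 3 each).

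The transcription factors above the chaperones changed less uniformly. Of 16 heat shock factor genes tested, 3 were higher and 1 was lower. *HSFB2B*, a repressor-type factor, had 15.9, 14.7 and 14.1 CPM in WT 29 °C and 5.85, 6.68 and 5.27 CPM in OE *APOLO-1* (log2 fold change 1.32, standard error 0.13, adjusted p = 4.25e-06, edgeR), and its relative *HSFB2A* had a log2 fold change of 0.84. *HSFA2*, an activator that prolongs the heat response, had 38, 55 and 49 counts in WT 29 °C and 5, 4 and 22 counts in OE *APOLO-1* (log2 fold change 2.08), and its call was lost without OE *APOLO-1* replicate B. *HSFA7A* went the other way (−0.43), and that call was lost in 5 of 6 fits with a library left out. With all 12 libraries 1 factor was higher.

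Heat shock factors bind the heat shock element, which was searched on both strands as 3 units that alternate between GAA and its reverse complement TTC, with 2 free bases between neighbouring units. This element occurred within 250 bases before and 50 after the start of 1.49% of the called higher genes, of 0.515% of the called lower genes and of 0.533% of all 19876 tested genes with a promoter in RefSeq TAIR10.1. Among the 23 higher chaperones 4 held it. The windows of 30 bases below, from RefSeq TAIR10.1 and read 5′ to 3′ along the gene, show the element in capitals. *HSFA2* and *HSP17.4* were called higher and *HSFA7A* was called lower, and each of these calls was lost in some fits:
HSFA2, chr2:11135528-11135557, plus strand: ttagtaacGAAGTTTCTGGAAcattgtctt
HSP17.4, chr3:16984945-16984974, minus strand: tcaacataGAAGCTTCTTGAAgccacctga
HSFA7A, chr3:19264941-19264970, plus strand: ttacgaagTTCCAGAAGTTTCgactattcg
The first capital base lies 88, 99 and 192 bases before the annotated start of these genes. Such a match is a run of letters and was not tested for binding. Genes with it were called in both directions, 25 higher and 9 lower among all called genes.

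Genes of seeds and desiccation were among the largest rises in WT 29 °C. LEA proteins and dehydrins protect dried cells, and oleosins coat the oil bodies of seeds. Of 51 tested genes whose product name is LEA, dehydrin, oleosin or seed maturation protein, 26 were higher and 7 were lower (4 lower without OE *APOLO-1* replicate B, WT 29 °C replicate A or WT 29 °C replicate C, and 3 with all 12 libraries), with a median log2 fold change of 0.97. This longer list was added after values were seen. Its summed level overlapped between the groups, at 3656 to 4623 CPM in WT 29 °C and 3670 to 4429 CPM in OE *APOLO-1*. In a narrower list of seed maturation genes 10 of 16 were higher and 1 was lower. Fold changes in this narrower list ran from −7.88, for a member that was not called, to 4.63 on the log2 scale. Its summed level was 539 to 765 CPM in WT 29 °C and 120 to 161 CPM in OE *APOLO-1*. When at least 10 counts were asked of every library, the higher members of the longer list dropped to 16, since the over-expressing libraries held few counts of these genes.

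AT2G42560, a LEA protein, had 10.7, 16.9 and 11.8 CPM in WT 29 °C, against 0.423, 0.362 and 0.0517 CPM in OE *APOLO-1* (log2 fold change 5.59, standard error 0.35, adjusted p = 5.12e-07, edgeR). *TIP3;1*, a tonoplast aquaporin of protein storage vacuoles in seeds, had 10.2, 13.5 and 9.53 CPM in WT 29 °C against 0.141, 0.104 and 0.465 CPM in OE *APOLO-1* (5.45 on the log2 scale). The over-expressing libraries held between 1 and 9 counts of these genes, so the size of each fold rests on few reads, although the warm libraries lay above all of them. *PER1*, a peroxiredoxin of seeds, had 34.1, 46.1 and 31.8 CPM in WT 29 °C, against 2.54, 1.81 and 1.81 CPM in OE *APOLO-1* (log2 fold change 4.20, standard error 0.18, adjusted p = 8.48e-09, edgeR). The level was also low in *vim1-3*, at 9.16, 5.40 and 7.35 CPM, and spread in WT 23 °C, at 8.87, 0.0585 and 4.44 CPM.

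AT1G54870, annotated as an NAD(P)-binding protein, had 42.7, 61.5 and 49.5 CPM in WT 29 °C and 1.62, 1.04 and 3.00 CPM in OE *APOLO-1* (log2 fold change 4.74, standard error 0.30, adjusted p = 3.61e-05, edgeR). AT3G54940, a papain-type protease, had 28.9, 39.7 and 32.2 CPM in WT 29 °C and 2.05, 1.605 and 2.38 CPM in OE *APOLO-1* (log2 fold change 4.06, standard error 0.17, adjusted p = 1.42e-09, edgeR). The dehydrin gene LEA (AT2G21490, 4.63), the LEA gene AT2G23110 (4.16), *OLEO2* (3.89) and AT1G04560 of the AWPM-19 family (4.79) rose on the same scale, each with no overlap between the groups. In the other direction the LEA gene AT2G41990 fell to 5.60, 4.10 and 4.54 CPM in WT 29 °C, against 33.6, 28.2 and 31.5 CPM in OE *APOLO-1* (log2 fold change −2.72, standard error 0.13, adjusted p = 4.41e-09, edgeR), and the dehydrin *LTI30*, a cold-induced protein, averaged 22.7 ± 4.82 CPM in WT 29 °C and 52.1 ± 4.34 CPM in OE *APOLO-1* (SD, n = 3 each).

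The defining seed storage markers were low and uneven. Of 7 markers of seed and embryo 2 could be tested, with 0 called and 0 at an unadjusted p under 0.05 in edgeR and 1 called as lower with DESeq2, and their summed level was 3.54 to 11.2 CPM in WT 29 °C and 1.09 to 26.7 CPM in OE *APOLO-1*. The cruciferin gene *CRA1* had 149, 180 and 63 counts in WT 29 °C and 262, 14 and 111 counts in OE *APOLO-1*, the lowest and the highest count both in OE *APOLO-1*. The embryo regulator *LEC1* had 0 counts in all 6 libraries and *FUS3* had at most 5.

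The G-box CACGTG, bound by bZIP factors of abscisic acid and seed programmes and by PIF-type bHLH factors, occurred in the promoter window of 13.8% of called higher genes, 8.76% of called lower genes and 8.92% of all tested genes. It occurred in 19 of the 33 called genes of the longer list of seed proteins, in which 26 were called higher and 7 lower. No share was computed for the members that were not called. The windows below from RefSeq TAIR10.1 show it in capitals in leading seed genes and in *IAA19*, an auxin-response gene described next:
PER1, chr1:17780369-17780398, plus strand: attatacgaagaCACGTGgcgtgaacccaa
AT1G54870, chr1:20458894-20458923, plus strand: cacgtttaccaaCACGTGtatcctcctccg
AT1G04560, chr1:1244829-1244858, plus strand: acaacgtcaagaCACGTGtcccaccacctg
AT3G54940, chr3:20354244-20354273, plus strand: atgcaaacatccCACGTGtttccactctgc
IAA19, chr3:5263919-5263948, plus strand: atcaaatgactcCACGTGtcgatattggat
In these windows the box begins 48, 46, 106, 95 and 70 bases before the annotated start. Called lower genes held the box too, among them *LHY* (−2.42), *GSTF6* (−2.26) and *FMO1* (−2.07). The overlap of this box with other motifs was not counted, and a match is a description of letters only.

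The auxin-response genes that were called were mostly higher in WT 29 °C. Of 15 SAUR growth genes tested, whose small proteins activate the proton pump that loosens the wall, 10 were higher and 0 were lower (median log2 fold change 0.91). The list of all SAUR genes was added after values were seen. Over all 63 SAUR genes tested, 24 were higher and 0 were lower, with 16 higher when OE *APOLO-1* replicate B was left out. Without OE *APOLO-1* replicate A 1 was lower. Of the 63, 2 were lower at an unadjusted p under 0.05 and 1 with DESeq2. *SAUR22* had 14.3, 14.2 and 14.7 CPM in WT 29 °C, against 1.34, 1.71 and 2.02 CPM in OE *APOLO-1* (log2 fold change 3.07, standard error 0.16, adjusted p = 1e-08, edgeR). Its neighbours *SAUR23* (2.38) and *SAUR19* (2.18) rose too, although these genes are near-identical copies between which short reads may have been split.

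Aux/IAA genes encode short-lived repressors that auxin induces, and 9 of 21 tested were higher and 1 was lower. *IAA19* had 40.1, 46.1 and 36.5 CPM in WT 29 °C, against 9.31, 7.19 and 6.72 CPM in OE *APOLO-1* (log2 fold change 2.41, standard error 0.13, adjusted p = 1.35e-08, edgeR), and *IAA29*, a target of PIF factors, had 13.5, 11.1 and 17.5 CPM in WT 29 °C against 2.47, 2.69 and 2.02 CPM in OE *APOLO-1* (log2 fold change 2.56, standard error 0.19, adjusted p = 4.29e-07, edgeR). *IAA6* rose further (2.79) at a lower level, and the exception *IAA28* (−0.44) was not called in 4 of 6 fits with a library left out. Among GH3 enzymes, which conjugate auxin to amino acids, 4 of 7 were higher and *GH3.9* (−0.70) was lower (call lost without OE *APOLO-1* replicate A, OE *APOLO-1* replicate B, WT 29 °C replicate A or WT 29 °C replicate C, and also with DESeq2 and with all 12 libraries). *GH3.3* had 29.6, 32.0 and 31.9 CPM in WT 29 °C and 5.01, 4.24 and 3.26 CPM in OE *APOLO-1* (log2 fold change 2.92, standard error 0.13, adjusted p = 3.44e-09, edgeR), and WT 23 °C had 11.6, 27.6 and 24.3 CPM, with replicates B and C just below the warm libraries and replicate A lower.

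Auxin biosynthesis genes did not move one way. *YUC8*, *YUC2* and *YUC3* were higher (*YUC3* 0.88, call lost without OE *APOLO-1* replicate B or OE *APOLO-1* replicate C), while *TAA1*, which makes the indole-pyruvate that YUC enzymes use, was lower at 5.48, 8.36 and 5.85 CPM in WT 29 °C, against 17.3, 13.7 and 14.5 CPM in OE *APOLO-1* (log2 fold change −1.21, standard error 0.16, adjusted p = 6.71e-05, edgeR). Of the 8 tested, 1 was called as higher without OE *APOLO-1* replicate C or with all 12 libraries fitted. PIF and shade-response genes were called higher in 7 of 12, among them the homeobox gene *HAT2* (42.5 ± 1.19 CPM in WT 29 °C and 18.7 ± 1.54 CPM in OE *APOLO-1*, SD, n = 3 each), its relative *HB-2* (0.91) and the growth-promoting bHLH gene *PRE1* (1.62). *PIF7*, a bHLH factor that also acts in warmth, was the lower member (−0.60).

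Brassinosteroid and gibberellin genes showed smaller counts. Of 12 brassinosteroid genes 5 were higher and 0 were lower, and 3 were called without OE *APOLO-1* replicate C, WT 29 °C replicate A or WT 29 °C replicate C. The biosynthetic P450 gene *CPD* had 279.7, 273 and 285 CPM in WT 29 °C and 158, 142 and 145 CPM in OE *APOLO-1* (log2 fold change 0.91, standard error 0.08, adjusted p = 2.49e-06, edgeR). Of 16 gibberellin genes 4 were higher and 0 were lower, led by the biosynthetic oxidase *GA20OX1* (40, 40 and 70 counts in WT 29 °C and 9, 10 and 12 counts in OE *APOLO-1*, log2 fold change 2.13) and the DELLA genes *RGL2* (1.12, call lost without OE *APOLO-1* replicate A, OE *APOLO-1* replicate C, WT 29 °C replicate A or WT 29 °C replicate B) and *RGL3* (1.09).

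Genes for water flow and wall loosening followed. Of 27 aquaporin genes tested 11 were higher and 1 was lower, although only 7 were higher without OE *APOLO-1* replicate C or with all 12 libraries. *PIP3*, an abundant plasma membrane aquaporin, had 2479, 2835 and 2263 CPM in WT 29 °C, against 1525, 1164 and 1264 CPM in OE *APOLO-1* (log2 fold change 0.94, standard error 0.12, adjusted p = 6.78e-05, edgeR). *BETA-TIP*, a seed-type tonoplast aquaporin, rose by 2.70 on the log2 scale, and *SIP1;2*, of the endoplasmic reticulum, was lower (−1.47). Expansins loosen cell walls at acid pH, and 5 of 20 were higher and 1 was lower, with 3 higher without OE *APOLO-1* replicate C or WT 29 °C replicate A and 1 with all 12 libraries. *EXPA8* had 241, 246 and 219.8 CPM in WT 29 °C, against 70.0, 57.2 and 65.0 CPM in OE *APOLO-1* (log2 fold change 1.88, standard error 0.10, adjusted p = 9.74e-09, edgeR), and *EXPA17*, the lower expansin, had 1.05, 2.16 and 2.13 CPM in WT 29 °C against 12.3, 11.1 and 7.70 CPM in OE *APOLO-1* (log2 fold change −2.51, standard error 0.25, adjusted p = 1.1e-05, edgeR). XTH enzymes, which cut and rejoin xyloglucan, were split into 6 higher and 4 lower of 26, and without OE *APOLO-1* replicate B 0 were higher and 1 was lower. The higher count was 1 without OE *APOLO-1* replicate C and 2 without WT 29 °C replicate A, and the lower count was 2 without OE *APOLO-1* replicate C and 1 without WT 29 °C replicate A or C. With all 12 libraries 3 were higher and 2 were lower.

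**Figure D2:**
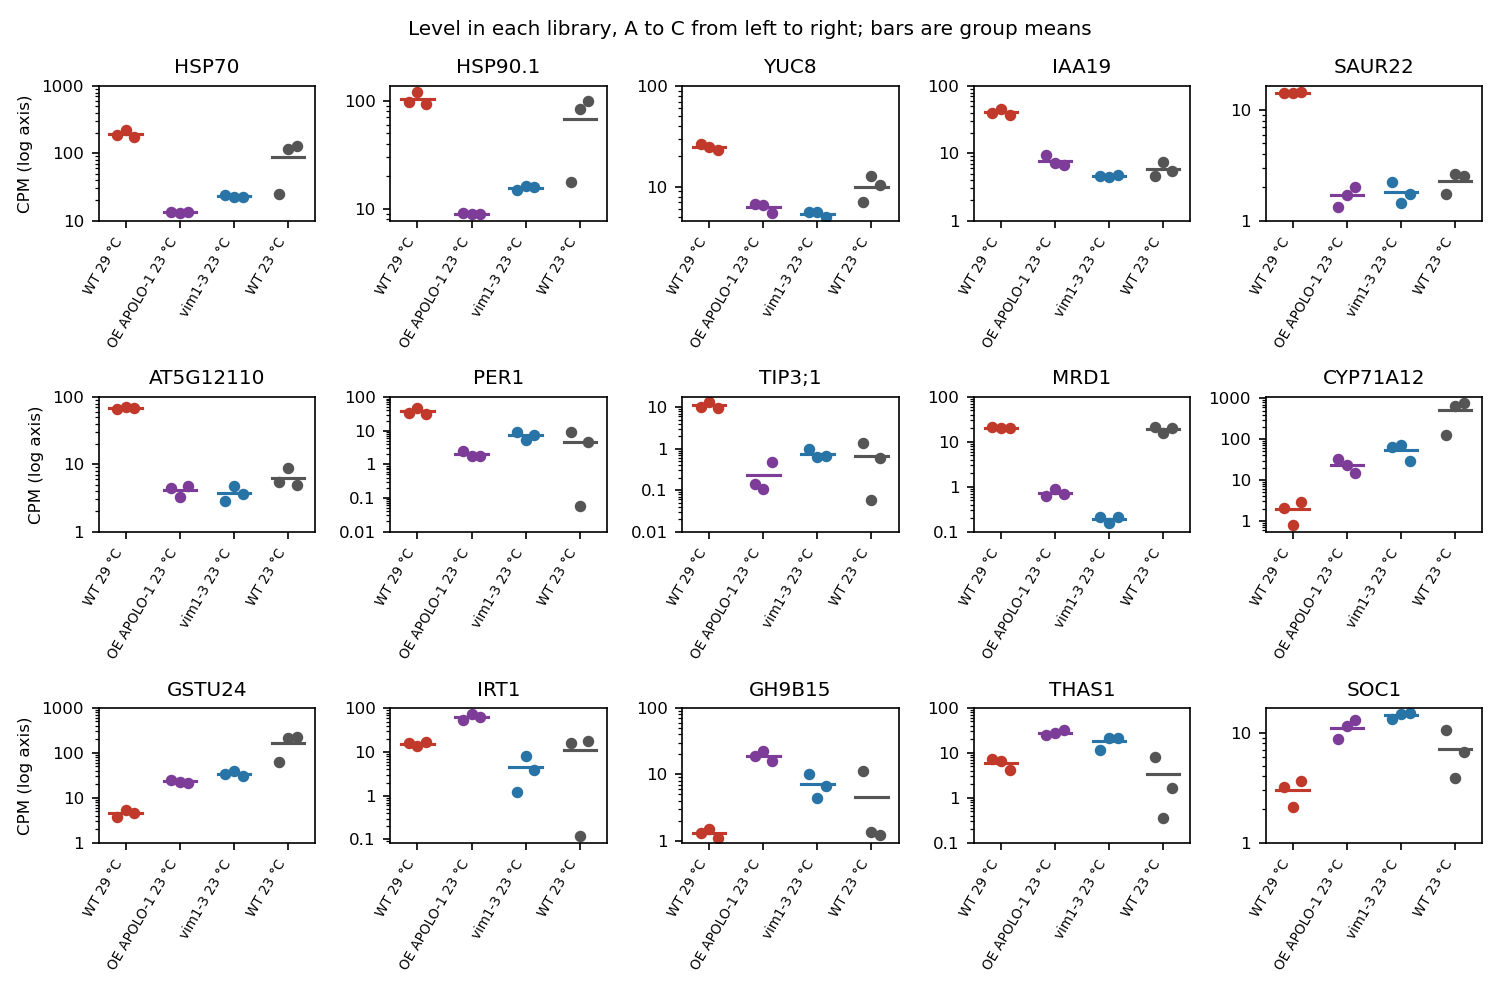
Level (CPM, logarithmic axis) of 15 single genes in each library, with WT 29 °C at the left of each panel, then OE *APOLO-1*, *vim1-3* and WT 23 °C, where each point is 1 library. Bars are group means. The warm points of *YUC8*, *HSP70* and *MRD1* lie above all OE *APOLO-1* points, those of *IRT1* and *GH9B15* lie below them, and the WT 23 °C points of *CYP71A12* reach 761 CPM.

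A few leading genes belonged to no list. AT5G12110, annotated as a subunit of translation elongation factor 1, had 66.6, 71.5 and 68.3 CPM in WT 29 °C, against 4.44, 3.31 and 4.70 CPM in OE *APOLO-1* (log2 fold change 4.05, standard error 0.12, adjusted p = 4.64e-11, edgeR). It was also low at 2.81, 4.77 and 3.67 CPM in *vim1-3* and 5.42, 8.66 and 4.92 CPM in WT 23 °C. It shares 1221 bases with AT5G12120 on the opposite strand, which was not called (log2 fold change 0.14), and without a stated strand setting reads from the shared bases cannot be assigned to either gene. The desaturase gene *ADS1* (AT1G06080), whose product adds double bonds to fatty acids, had 64.5, 58.9 and 63.4 CPM in WT 29 °C and 5.08, 6.42 and 5.22 CPM in OE *APOLO-1* (log2 fold change 3.47, standard error 0.11, adjusted p = 7.32e-11, edgeR). WT 23 °C had 7.19, 30.2 and 16.6 CPM, all 3 above OE *APOLO-1* and below WT 29 °C.

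*MRD1*, named after its response in the mutant mto1, had another pattern. It had 21.3, 20.3 and 20.4 CPM in WT 29 °C, against 0.635, 0.880 and 0.672 CPM in OE *APOLO-1* (log2 fold change 4.79, standard error 0.16, adjusted p = 1.35e-10, edgeR), with 0.213, 0.159 and 0.211 CPM in *vim1-3* and 20.9, 15.9 and 20.3 CPM in WT 23 °C. Thus both WT groups were at one level and both lines with an insertion, OE *APOLO-1* and *vim1-3*, were at least an order of magnitude below it. The noncoding gene AT1G07887 overlaps 1039 of its bases on the opposite strand.

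Induced defence genes were lower in WT 29 °C. All 8 tested genes listed under camalexin and indole defence were lower (median log2 fold change −1.37). The count fell to 3 without WT 29 °C replicate A and to 2 with all 12 libraries. It was 4 or 5 without OE *APOLO-1* replicate B or WT 29 °C replicate B or C. Indole defence makes antimicrobial indoles from tryptophan. *CYP82C4*, a member of the 8, instead makes a coumarin, so the 8 are not all genes of the indole pathway. *CYP82C4* was also counted among the iron genes and had the largest decrease of both lists (−4.10). *CYP71A12*, an indole-pathway P450, had 2.04, 0.775 and 2.90 CPM in WT 29 °C, against 32.7, 22.9 and 14.5 CPM in OE *APOLO-1*. Its levels were still higher in *vim1-3*, at 64.5, 72.1 and 29.0 CPM, and most of all in WT 23 °C, at 128, 654 and 761 CPM. The difference was called (log2 fold change −3.57, standard error 0.52, adjusted p = 0.00712, edgeR) but lost in 4 of 6 fits with a library left out, and *CYP71A12* shares much sequence with its neighbour *CYP71A13*.

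A further 6 genes, most of them induced in defence, had the same order of mean levels, WT 29 °C lowest and WT 23 °C highest. No function is given here for AT1G27020, 1 of the 6. *CYP82C4* of the list above did not follow this order and had its highest mean in OE *APOLO-1*. *CYP81F2*, a P450 of indole glucosinolates, averaged 3.71 ± 1.72 CPM in WT 29 °C, 21.9 ± 4.99 CPM in OE *APOLO-1*, 49.3 ± 15.2 CPM in *vim1-3* and 242 ± 144 CPM in WT 23 °C (SD, n = 3 each). *PLA2A*, a lipid acyl hydrolase induced by pathogens, had 1.57, 1.27 and 2.63 CPM in WT 29 °C, against 15.7, 11.8 and 13.0 CPM in OE *APOLO-1* (log2 fold change −2.85, standard error 0.22, adjusted p = 7.95e-07, edgeR). *IGMT3*, which methylates indole glucosinolates, had 10.2, 9.46 and 10.1 CPM in WT 29 °C against 40.0, 37.9 and 34.8 CPM in OE *APOLO-1* (log2 fold change −1.92, standard error 0.10, adjusted p = 9.74e-09, edgeR). *GSTF6*, a glutathione transferase of camalexin synthesis, had a log2 fold change of −2.26, AT1G27020 one of −1.94, and the berberine bridge enzyme-like gene AT1G26380 one of −2.62, while the calls of *CYP81F2* and *GSTF6* were lost without WT 29 °C replicate A and that of AT1G26380 without 3 of the libraries in turn.

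Salicylic acid genes, which act against biotrophic pathogens, were lower in 7 of 10 and higher in none (median −0.82), with 2 called when all 12 libraries were fitted. *CBP60G*, a transcription factor of salicylic acid synthesis, had 2.22, 1.83 and 1.45 CPM in WT 29 °C, against 10.9, 9.63 and 6.20 CPM in OE *APOLO-1* (log2 fold change −2.29, standard error 0.24, adjusted p = 8.44e-06, edgeR). *FMO1*, which makes the systemic signal N-hydroxypipecolic acid, fell by 2.07 on the log2 scale. *PBS3*, which conjugates isochorismate in salicylic acid synthesis, had 0, 0 and 2 counts in WT 29 °C and 9, 19 and 13 counts in OE *APOLO-1*. Of 48 WRKY factor genes, 9 were lower and 3 were higher, among them *WRKY18* (log2 fold change −1.05), *WRKY31* (−0.97) and, on the higher side, *WRKY22* (1.26). With all 12 libraries 3 were lower and 1 was higher, while the higher count was 1 whichever library was left out and the lower count was 5 without OE *APOLO-1* replicate B or WT 29 °C replicate A.

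Jasmonate biosynthesis genes were called in 7.14% and signalling and output genes in 12.5%, against 17.1% of all genes tested. *AOS*, an early enzyme of jasmonate synthesis, was higher (93.9 ± 3.72 CPM in WT 29 °C and 46.5 ± 4.15 CPM in OE *APOLO-1*, SD, n = 3 each) and was the 1 called of 14 biosynthesis genes. Of 16 signalling and output genes the lectin gene *JR1* (−0.67) and the repressor gene *JAZ1* (−0.52) were lower, and the call of *JAZ1* was lost without OE *APOLO-1* replicate B, OE *APOLO-1* replicate C, WT 29 °C replicate A, WT 29 °C replicate B or WT 29 °C replicate C. Of the biosynthesis genes 2 were higher without OE *APOLO-1* replicate B or WT 29 °C replicate B, and 0 with all 12 libraries. Of 14 ethylene-response factor genes, 4 were higher and 0 were lower, among them *ORA47* (2.31) and *ERF8* (1.09), with 2 higher when all 12 libraries were fitted.

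Genes that detoxify and export small molecules were lower in most called cases, in lists that were added after values were seen. Of 23 tau-class glutathione transferases tested, which attach glutathione to foreign compounds, 12 were lower and 3 were higher (median −0.63). *GSTU24* had 3.73, 5.20 and 4.45 CPM in WT 29 °C, against 25.3, 22.7 and 21.5 CPM in OE *APOLO-1* (log2 fold change −2.37, standard error 0.13, adjusted p = 1.89e-08, edgeR), and *GSTU25*, its tandem neighbour, had 2.39, 3.38 and 2.18 CPM in WT 29 °C against 16.1, 14.9 and 13.4 CPM in OE *APOLO-1* (log2 fold change −2.49, standard error 0.17, adjusted p = 1.27e-07, edgeR). *GSTU8* was lower too (−1.69), and *GSTU5* was higher (128 ± 6.63 CPM in WT 29 °C and 65.4 ± 4.28 CPM in OE *APOLO-1*, SD, n = 3 each). The largest change of the tau class was a rise, that of *GSTU3* (3.56, call lost with all 12 libraries). MATE transporters export such compounds and metabolites, and 14 of 39 were lower and 5 higher. The largest rise among the transporters was that of AT3G03620 (2.95). AT2G04050 had 5, 2 and 3 counts in WT 29 °C and 73, 68 and 67 counts in OE *APOLO-1*, and its neighbour AT2G04070 had 0 counts in each WT 29 °C library, where the floor is 3 counts, and 33, 26 and 28 counts in OE *APOLO-1*. With all 12 libraries in the fit, 4 transferases and 6 transporters were lower.

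Specialised root metabolism and iron uptake were lower as well. The thalianol and marneral clusters make root triterpenes, and 5 of 6 genes were lower (median −1.18), although none passed with all 12 libraries. The synthase genes *THAS1* and *MRN1* catalyse the first step of each pathway. *THAS1* had 7.29, 6.42 and 4.13 CPM in WT 29 °C and 25.5, 27.3 and 31.9 CPM in OE *APOLO-1*, and *MRN1* had 1.57, 1.16 and 1.09 CPM in WT 29 °C and 8.11, 5.69 and 7.96 CPM in OE *APOLO-1*. Their log2 fold changes were −2.27 (adjusted p = 1.94e-06, edgeR) and −2.51 (adjusted p = 1.52e-06, edgeR), with no overlap between the groups. Root markers other than *PHT1;1* did not pass the test in either direction.

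*IRT1*, the main iron importer of the root, had 15.9, 13.7 and 16.9 CPM in WT 29 °C, against 53.2, 74.3 and 65.3 CPM in OE *APOLO-1* (log2 fold change −2.05, standard error 0.13, adjusted p = 1.22e-07, edgeR). That call was lost with all 12 libraries (adjusted p = 0.133, edgeR) and with the 9 libraries without WT 23 °C. Here OE *APOLO-1* stood above every other library, with 1.19, 8.34 and 3.84 CPM in *vim1-3* and 16.0, 0.117 and 18.3 CPM in WT 23 °C. *CYP82C4*, which makes the iron-mobilising coumarin sideretin, had 3, 5 and 1 counts in WT 29 °C, 38, 65 and 46 counts in OE *APOLO-1* and 1, 1 and 1 counts in *vim1-3*. *F6'H1*, the first enzyme of these coumarins, was lower in WT 29 °C (−1.14), and *FER1*, the iron store ferritin, was higher (0.54, call lost without OE *APOLO-1* replicate C). In all 5 of 13 iron genes were lower and 1 was higher, with 1 lower when all 12 libraries were fitted.

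Wall and protease genes stood among the largest decreases. AT5G46960, annotated as an invertase or pectin methylesterase inhibitor, had 0.758, 1.05 and 0.544 CPM in WT 29 °C, against 11.3, 13.8 and 14.4 CPM in OE *APOLO-1* (log2 fold change −4.09, standard error 0.21, adjusted p = 9.95e-09, edgeR). *GH9B15*, a cellulase-family glycosyl hydrolase, had 1.28, 1.49 and 1.09 CPM in WT 29 °C against 18.6, 22.7 and 15.9 CPM in OE *APOLO-1* (log2 fold change −3.90, standard error 0.19, adjusted p = 4.41e-09, edgeR). *CP1*, a cysteine protease, averaged 13.5 ± 2.57 CPM in WT 29 °C and 70.5 ± 1.91 CPM in OE *APOLO-1* (log2 fold change −2.39, standard error 0.12, adjusted p = 9.42e-09, edgeR). For all of these the over-expressing libraries were above those of the other 3 groups on average, with means of 5.61 ± 2.27, 7.02 ± 2.81 and 26.7 ± 9.11 CPM in *vim1-3* and 3.87 ± 3.40, 4.57 ± 5.71 and 29.5 ± 11.5 CPM in WT 23 °C (SD, n = 3 each).

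**Figure D3:**
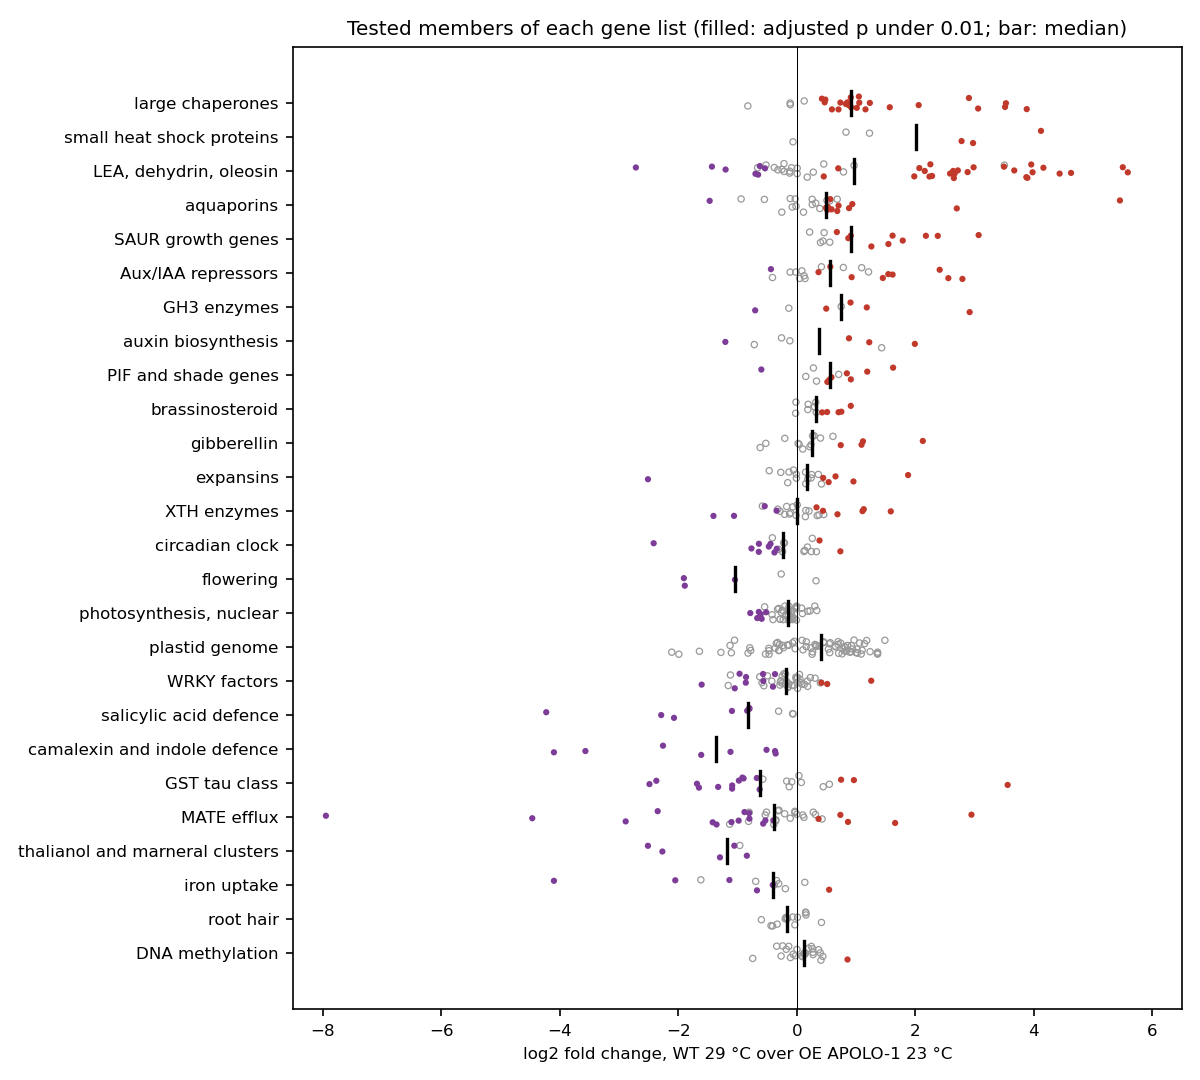
Log2 fold change (WT 29 °C over OE *APOLO-1*, horizontal axis) of every tested member of 26 gene lists, where filled points were called, open points were not and the vertical bar is the list's median. Large chaperones have 23 higher and 0 lower of 27, while the list of camalexin and indole defence, which includes the coumarin gene *CYP82C4*, has 0 higher and 8 lower of 8.

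Clock and flowering genes were lower on balance. Of 21 clock genes 8 were lower and 2 were higher (median −0.24), and the lower count was 5 without OE *APOLO-1* replicate B, 4 without WT 29 °C replicate A and 2 with all 12 libraries. *LHY*, a morning-expressed repressor, had 5, 8 and 10 counts in WT 29 °C and 27, 37 and 51 counts in OE *APOLO-1* (log2 fold change −2.42, standard error 0.32, adjusted p = 7.17e-05, edgeR). *PRR5*, a repressor expressed in the afternoon, had 60.9, 68.4 and 64.5 CPM in WT 29 °C, against 104, 101 and 97.5 CPM in OE *APOLO-1* (log2 fold change −0.64, standard error 0.08, adjusted p = 4.51e-05, edgeR), and *PRR3* had a log2 fold change of −0.77. The evening element AAAATATCT, searched on both strands, occurred in the promoter window of 5.44% of called lower genes, 2.57% of called higher genes and 2.97% of all tested genes, and in 4 of the 10 called clock genes. The windows of *PRR5* and of the cold-regulated gene *COR27* (−0.73), which also acts in the clock, show it in capitals, on the opposite strand in both (RefSeq TAIR10.1):
PRR5, chr5:8358714-8358743, minus strand: gattttttctAGATATTTTcttttctccac
COR27, chr5:17199930-17199959, minus strand: ggacggtggaAGATATTTTgcagttgaaga
*COR27* held a further copy that begins 20 bases before its start. Called higher genes held the element too, among them the clock gene *BOA* (0.73) and *YUC2* (1.22). The hour of harvest is not given in the sources used here, so a shift in the phase of daily rhythms was not tested.

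*SOC1*, a MADS-box gene that promotes flowering, had 3.21, 2.103 and 3.63 CPM in WT 29 °C, against 8.68, 11.5 and 13.0 CPM in OE *APOLO-1* (log2 fold change −1.89, standard error 0.20, adjusted p = 1.28e-05, edgeR). *FLM*, a repressor whose splicing depends on temperature, had 13.6, 11.3 and 14.4 CPM in WT 29 °C against 24.3, 25.2 and 31.5 CPM in OE *APOLO-1* (log2 fold change −1.04, standard error 0.12, adjusted p = 2.59e-05, edgeR). Of 5 flowering genes tested 3 were lower and 0 were higher, and the third, *CO*, held 4, 4 and 10 counts in WT 29 °C and 15, 18 and 30 counts in OE *APOLO-1* (call lost without OE *APOLO-1* replicate C or WT 29 °C replicate A). The counts are per gene, so the splice forms of *FLM* were not measured.

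Of 14 photoreceptor and light-signalling genes 2 were higher and 3 were lower. *ELIP2*, which protects chloroplasts from excess light, had 5, 5 and 5 counts in WT 29 °C and 40, 32 and 35 counts in OE *APOLO-1* (−2.94 on the log2 scale), and *HYH*, a bZIP partner of *HY5*, was lower (−1.07). The photoreceptor genes *PHYA* (0.74) and *PHOT1* (0.63) were higher, and neither passed with all 12 libraries. Among 43 nuclear photosynthesis genes 6 were lower (13.95%, against 8.74% of all genes tested) and 0 were higher. The lower count was 11 without OE *APOLO-1* replicate B and 3 without OE *APOLO-1* replicate C. *RBCS1B*, a Rubisco small subunit, averaged 509 ± 40.8 CPM in WT 29 °C and 876 ± 117 CPM in OE *APOLO-1*, and the antenna gene *LHCB2.3* averaged 763 ± 77.3 CPM in WT 29 °C and 1211 ± 153 CPM in OE *APOLO-1* (SD, n = 3 each). *CA1*, a chloroplast carbonic anhydrase, showed the largest difference of the green markers, with 1680.4, 1559.6 and 1431 CPM in WT 29 °C, against 3779.8, 3676 and 3779 CPM in OE *APOLO-1* (log2 fold change −1.27, standard error 0.11, adjusted p = 9.6e-07, edgeR). The other called green marker was *RBCS1A* (−0.59, call lost without OE *APOLO-1* replicate C, WT 29 °C replicate A or WT 29 °C replicate C), and *LHCB1.1* (−0.05), *LHCB2.1* (−0.14) and *RCA* (−0.19) were not called.

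Transcripts of the organelle genomes varied between libraries of one group. Plastid genes made up 0.448%, 0.117% and 0.385% of the counts in WT 29 °C and 0.160%, 0.259% and 0.173% in OE *APOLO-1*, so the groups overlapped. Of 76 plastid genes 0 were called with edgeR, 5 were higher and 0 lower at an unadjusted p under 0.05, and 1 was called with DESeq2. Without WT 29 °C replicate B, the library with the lowest share, 18 were called as higher. Of 17 mitochondrial genes tested 4 were higher, all at a few CPM. Among them were ATMG00690 (1.69), ATMG00660 (1.41 to 1.77 over the other fits) and ATMG00080 (1.39). The higher count was 1 without OE *APOLO-1* replicate B or C or WT 29 °C replicate C, 12 without WT 29 °C replicate B and 0 with all 12 libraries.

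The chromatin genes that the study asks about held few calls, where 17.1% of all genes tested were called. Of 26 DNA methylation genes tested 1 was called, the VIM-family gene *ORL1* (log2 fold change 0.85), and the list's median was 0.12. Of 15 Polycomb and H2A.Z genes only the histone gene *HTA11* was lower (−0.49), a call lost in 5 of 6 fits with a library left out, and the call of *ORL1* was lost without OE *APOLO-1* replicate C or WT 29 °C replicate C. Of 15 root hair genes 0 were called with edgeR or DESeq2 and 3 had an unadjusted p under 0.05 (median −0.16). The only testable gene of 3 that DNA methylation silences was not called with edgeR or DESeq2 but had an unadjusted p under 0.05 (log2 fold change −1.03).

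The remaining lists of hormones and stresses were small. In abscisic acid signalling 2 of 9 were higher, the phosphatase gene *HAI3* (2.24) and the biosynthesis gene *NCED3* (1.26), and neither passed with all 12 libraries. Of 8 type-A cytokinin response regulators *ARR7* (−1.46, call lost without OE *APOLO-1* replicate B, OE *APOLO-1* replicate C or WT 29 °C replicate A) and *ARR4* (−0.47, call lost without WT 29 °C replicate C) were lower. Cold-response genes were split, with *COR15B* (−2.60, call lost without OE *APOLO-1* replicate B, WT 29 °C replicate A or WT 29 °C replicate C) and *COR27* among 3 lower and *KIN2* (0.72) the 1 higher of 10, and with all 12 libraries 1 was lower and 0 were higher. Among 7 aliphatic glucosinolate genes *MAM3* (−1.20, call lost without OE *APOLO-1* replicate B, WT 29 °C replicate A or WT 29 °C replicate C) was lower, and among 10 flavonoid genes the flavonol synthase *FLS1* (−1.11) was lower. In the directions with 0 edgeR calls, the lists of SAUR growth, brassinosteroid, gibberellin, camalexin, salicylic acid and thalianol genes also had 0 genes at an unadjusted p under 0.05 and 0 DESeq2 calls, while 2 photosynthesis genes were higher, 1 flowering gene was higher and 1 ethylene-response factor was lower at that p, with 0 DESeq2 calls.

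The levels in *vim1-3* and WT 23 °C place these differences. Each called gene was placed by its mean log2 CPM in the other groups, as a description without a test, since the same OE *APOLO-1* and WT 29 °C libraries fix both ends. For the 1680 genes higher in WT 29 °C, the mean of *vim1-3* was nearer to OE *APOLO-1* than to WT 29 °C in 81.0%, and that of WT 23 °C in 70.1%. For the 1746 lower genes these shares were 81.6% and 67.1%, while over all tested genes they were 64.7% and 58.4%. The called genes were chosen by the distance between the ends, so these shares are not independent of the choice.

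WT 23 °C lay above both ends for 40.0% of the lower genes, against 36.2% of all tested genes, and below both for 31.4% of the higher genes, against 35.3% of all tested genes. The called genes have ends further apart by choice, so the shares over all tested genes are not a like background in this paragraph. The induced defence genes *CYP71A12*, *GSTF6*, *PLA2A* and *CYP81F2* were lower genes with WT 23 °C above both ends. WT 23 °C lay above both ends for 11.6% of the higher genes, a share of 16.8% without WT 23 °C replicate A. In *vim1-3* 5.83% of the higher genes lay above both ends and 36.85% below both. Of the lower genes 4.87% lay below both and 44.16% above both. Over all tested genes 33.5% lay above both and 33.0% below both. *IRT1*, *CYP82C4* and *THAS1*, by contrast, had their highest mean in OE *APOLO-1* among the 4 groups.

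**Figure D4:**
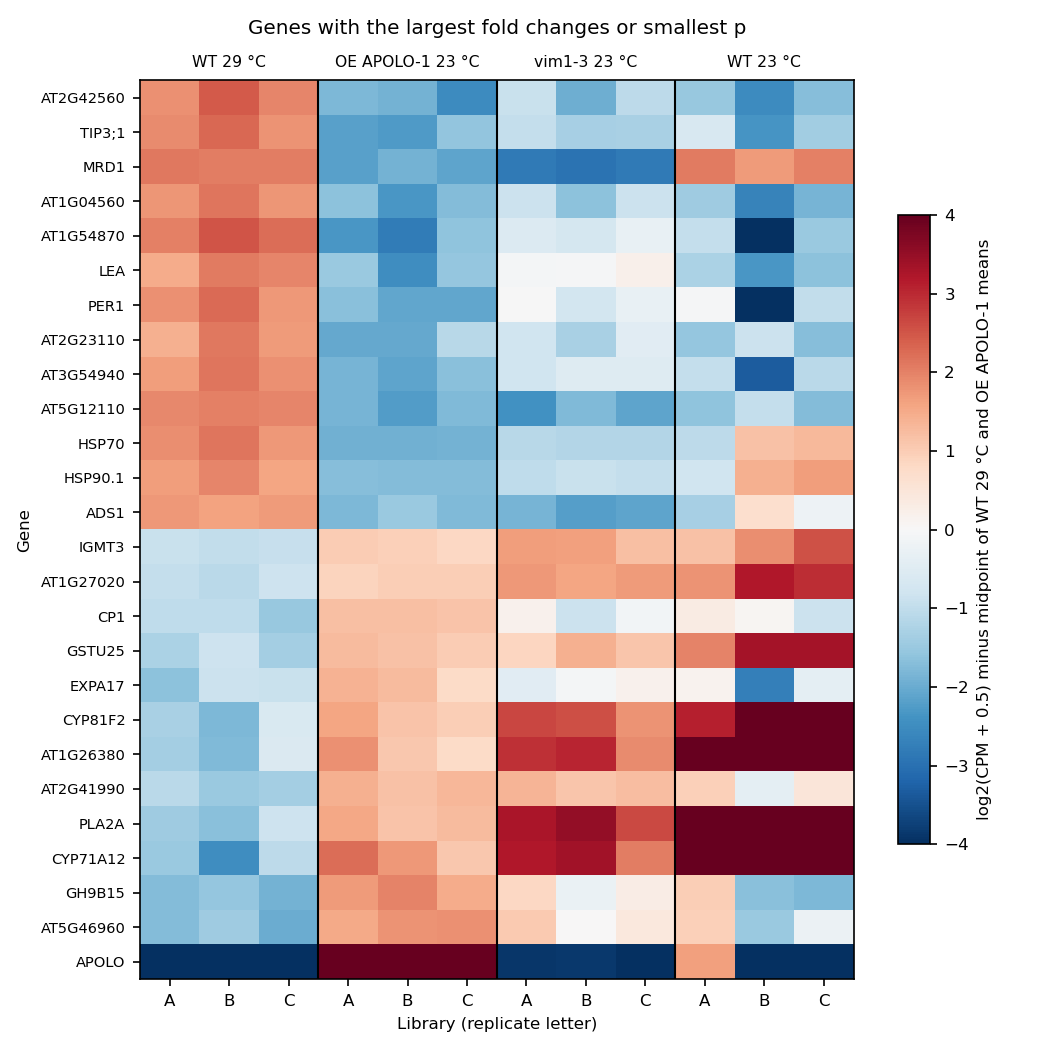
Log2 CPM of 26 leading genes (rows) in all 12 libraries (columns, WT 29 °C first, then OE *APOLO-1*, *vim1-3* and WT 23 °C), coloured by the distance from the midpoint of the WT 29 °C and OE *APOLO-1* means, up to 4 in either direction. The WT 29 °C columns are red for the seed genes, *MRD1* is red in both WT groups, and *HSP70* and *HSP90.1* are also red in WT 23 °C replicates B and C.

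**Figure D5:**
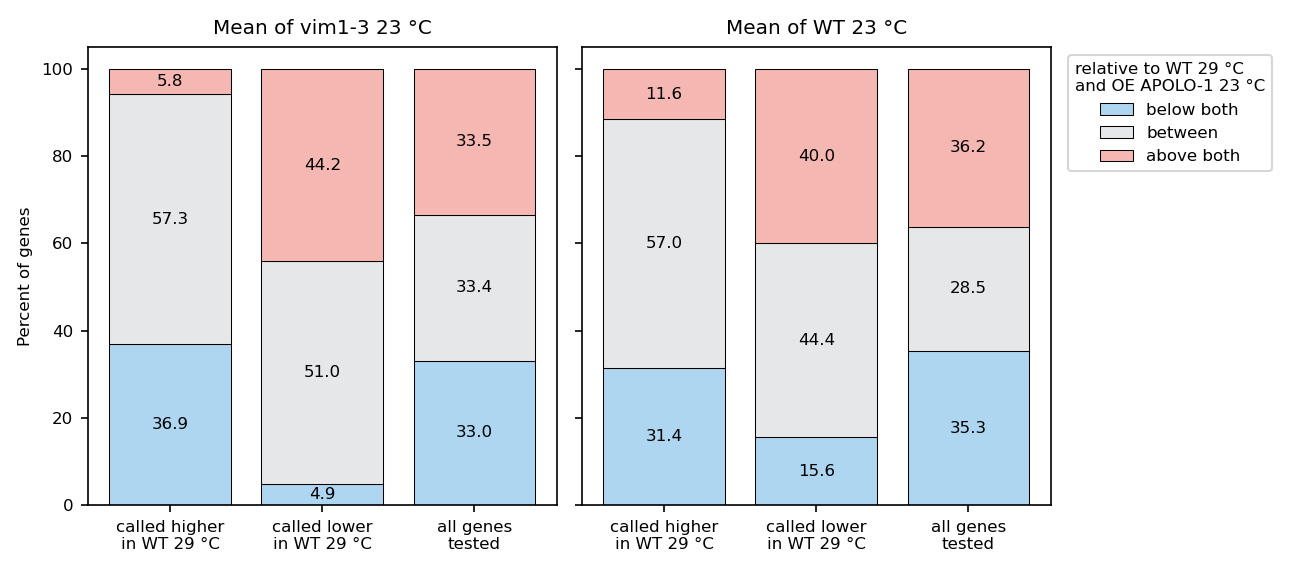
Share (percent, stacked bars) of called higher, called lower and all tested genes whose mean in *vim1-3* or WT 23 °C lay above, between or below the means of WT 29 °C and OE *APOLO-1*. For the higher genes 57.3% of *vim1-3* and 57.0% of WT 23 °C means lay between, against 33.4% and 28.5% for all tested genes. Called genes were chosen by the distance between the WT 29 °C and OE *APOLO-1* means, so these shares are not independent of that choice.

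The study links *APOLO* binding to GAAGAA motifs, and these letters were searched in the same promoter windows. They occurred on either strand in 39.3% of called higher genes, 35.1% of called lower genes and 38.8% of all tested genes. No test was run on these shares, and the order of the 3 shares carries no statement about *APOLO* binding.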

How the data were processed

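RNA was sequenced from 12 libraries of 4-day-old seedlings, and the values are raw counts per gene, which the authors deposited without normalization. Per the study's methods and the submitters' processing notes, reads were trimmed with Trimmomatic 0.36, cleared of ribosomal RNA with SortMeRNA, aligned to TAIR10 with STAR 2.5.2b and counted over Araport11 genes with featureCounts of Subread 1.6.5. The strand setting of the counting is not given in the sources used here, so reads of overlapping genes on opposite strands cannot be told apart, and reads of near-identical copies may have been split or dropped. Of 37336 genes, 37051 matched the RefSeq table of TAIR10.1, which gave symbols, coordinates and promoter windows (250 bases before to 50 after the start). Library totals ran from 8824476 to 22925019 counts.

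The 6 libraries of WT 29 °C and OE *APOLO-1* 23 °C were fitted in R 4.3.3 with edgeR 4.0.16 (filterByExpr, TMM factors, glmQLFit with the robust option, glmQLFTest), and p-values were adjusted by Benjamini-Hochberg over the 19981 genes tested. A gene was called at an adjusted p under 0.01. Fold changes are WT 29 °C over OE *APOLO-1* and standard errors come from the F statistic. CPM used TMM factors over all 12 libraries. The fit was tested on simulated counts, where false calls exceeded the nominal rate, with 10 false among 164 calls at the threshold of 0.01. Small fold changes were often missed: 30 of 53 genes changed 1.5-fold were recovered, 57 of 73 changed 2-fold and 67 of 69 changed 4-fold. Far fewer genes were changed in the simulation than were called in the data. Replicates of a group differed by more than counting noise.

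The comparison and the 47 gene lists were chosen with earlier results of these data known, and 5 lists (LEA and oleosin, HSP20-like, SAUR, GST tau and MATE, by product name or symbol) were added after values were seen, so no list was tested as a set. Genes were named by a rule: the genes of the study, the 10 largest rises and 10 largest falls among called nuclear genes with at least 10 CPM in the higher group and no overlap, the 5 smallest p in each direction, and up to 3 called members per list and direction. Markers and untested genes were named after their values were seen. Alternatives were DESeq2 1.42.0, RLE and upper-quartile factors, other count filters, 9 or all 12 libraries, the replicate letter as a block, other thresholds, each library left out, and 1 pair of libraries left out together (chosen after seeing the data). Figures used Python 3.11.15 with matplotlib 3.10.9.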

Additional observations from a re-analysis of the deposited data

Results flagged for a closer look

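*APOLO* reads appeared in a library outside the comparison. WT 23 °C replicate A, which carries no transgene by its label, held 1197 *APOLO* counts (57.4 CPM), while WT 23 °C replicates B and C held 2 and 1 counts. The OE *APOLO-1* libraries held 4984, 8949 and 11720 counts and the WT 29 °C libraries 2, 8 and 5 counts. No call of the comparison uses this library, and the placing of WT 23 °C is given with and without it.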

How the results depend on the processing

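In the 17 alternatives no gene called in both fits changed direction. The settings with a threshold of 0.05 and with at least 2-fold use the same fitted fold changes, so direction could not change in them. The other settings refit the same libraries, so their directions are not independent of the main fit. With all 12 libraries 1689 genes were called (972 higher and 717 lower in WT 29 °C), and with a threshold of 0.05 there were 5714 (2828 and 2886). At the threshold of 0.01 with at least 2-fold asked as well, there were 929 (491 and 438). Leaving out each library in turn gave 2141 to 3472 called genes, 1058 to 1712 higher and 1072 to 1760 lower. The share of higher genes among the calls was 57.5% with all 12 libraries, against 49.0% with the 6. Without WT 23 °C replicate A, its mean was nearer to OE *APOLO-1* for 63.81% of the higher genes (70.12% with it) and above both ends for 16.79% (11.61%), and for the lower genes it was nearer to OE *APOLO-1* for 60.48% (67.07%) and below both for 21.36% (15.58%).

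With the replicate letter as a block 2784 genes were called. The letters did not pair the libraries: the deviations of same-lettered libraries correlated at −0.294, −0.291 and 0.239, while WT 29 °C replicate B and OE *APOLO-1* replicate A correlated at 0.502, and leaving out both (chosen after seeing the data) gave 3804 calls.

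Of 155 named genes with a fit under the alternatives, 85 kept their side of the threshold in every one and 70 lost their call in at least 1, and none changed direction. Genes with few counts in one group, such as *HSP22.0*, *LHY* or *PBS3*, have folds that rest on those reads. The cause of the differences between alternatives was not tested.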
